A study of Mus musculus with 7 samples.

Results

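The phase II conjugation enzyme genes were taken as the mouse protein-coding genes of the Gst (glutathione S-transferase), Ugt (UDP-glycosyltransferase) and Sult (sulfotransferase) families, chosen by symbol from the GENCODE M21 annotation. This gave 65 genes, 22 Gst, 22 Ugt and 21 Sult. Their chromatin accessibility was read from 136 of 55680 accessible regions of the GRCm38 genome, those that overlapped a gene body or the 2 kb on either side of it. Of these, 50 belonged to Gst genes, 55 to Ugt genes and 31 to Sult genes. The data were ATAC-seq libraries, in which a transposase cuts DNA that is not packed by nucleosomes, made from nuclei of whole liver tissue of male C57BL/6N mice. The 3 young libraries came from mice aged 3 months and the 4 aged libraries from mice aged 18 months. The mice carried no transgene or treatment. Per the labels, the 4 aged libraries came from 3 animals, with different lobules of 1 liver counted as separate replicates, and the labels do not say which libraries these are. The p-values below therefore measure the spread between these libraries, part of which lies within 1 animal.

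Phase II enzymes make drugs, hormones, bilirubin and bile acids easier to excrete by attaching a polar group to them. Gst enzymes attach glutathione, Ugt enzymes attach a sugar, most often glucuronic acid, and Sult enzymes attach sulfate taken from the donor PAPS. Many of these genes lie in tandem clusters that arose by duplication, and hepatocytes express a large share of them. Several are known targets of the nuclear receptors PXR and CAR, of the aryl hydrocarbon receptor and of the antioxidant factor NRF2.

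The counts per library summed to between 4474652 and 25461110, and the deepest library was young replicate 2. In pairs of libraries of the same age, the chi-square of the counts per degree of freedom was 2.47 to 6.10, so none was a repeat of another. Aged replicate 4 stood apart at the phase II genes. It was the lowest of the aged libraries in 79 of the 136 regions, against 16573 of all 55680 regions, and its median difference from the other aged libraries was -0.32 on the log2 scale, against 0.01 over all regions. Counts of differential regions are therefore also given without it, and without every other library that moved them.

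Of the 65 genes, 52 had at least 1 accessible region, namely 21 Gst, 18 Ugt and 13 Sult genes. The 13 genes with none were Gstt4, Ugt8a, Ugt2a1, Ugt2a2, Ugt2b38, Sult1c1, Sult3a1, Sult4a1, Sult2a2, Sult2a3, Sult2a4, Sult2a6 and Sult2a7. A region overlapping the promoter, defined as 200 bp on either side of an annotated transcription start site, was present for 42 genes: 21 Gst, 14 Ugt and 7 Sult. Sult1e1, the estrogen sulfotransferase, and Sult2a1, a hydroxysteroid sulfotransferase, had a region inside or near the gene but none at the promoter. Of the 136 regions, 52 overlapped a promoter, 17 an exon, 50 only an intron and 17 only the flanks. Promoter here means that of a phase II gene, and 9 of the other 84 regions lay at a start site of a different annotated gene, such as Ddt beside Gstt3. Gst regions had the highest median level, 4.52 log2 CPM (CPM, counts scaled to library size with TMM factors). It was 3.23 for Ugt, 2.70 for Sult and 3.12 for all regions. CPM is not divided by region length. Median lengths were 1336 bases for Gst, 1007 for Ugt, 739 for Sult and 869 for all regions. The median GC content was 48.7% for Gst, 42.8% for Ugt, 44.1% for Sult and 49.4% for all regions. For 12 regions a near-identical copy lies at another place in the genome, 11 Ugt and 1 Gst. With edgeR 0 of these 12 passed, 3 had an unadjusted p under 0.05, and DESeq2 called 2 and limma voom 1 of them higher, so those calls are uncertain.

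Accessibility differed with age at 10 of the 136 regions (edgeR quasi-likelihood test, Benjamini-Hochberg adjusted p under 0.05 over all regions). It rose at 9 regions and fell at 1. The Gst family held 7 of the 9 increases and the Ugt family the other 2, and 0 of 31 Sult regions passed. As background, 2.44% of all regions rose and 3.3% fell with age, compared with 14% and 0% of the Gst regions and 3.64% and 1.82% of the Ugt regions. Against these shares, the counts do not set the Ugt and Sult families apart. All 9 increases were at phase II promoters, 9 of 52 (17.3%). By family they were at 7 of 27 Gst, 2 of 16 Ugt and 0 of 9 Sult promoter regions. Over all regions, 4.48% of those at a start site of any gene rose and 2.06% fell, against 1.66% and 3.78% of those at no start site. Divided in the same way, 9 of 61 phase II regions at a start site of any gene rose (14.8%) and 0 fell. Of the 75 at no start site 0 rose and 1 fell in this fit, and 21 had an unadjusted p under 0.05. An unadjusted p under 0.05 was common, at 24.6% of all regions, 32.1% of those at a start site and 21.7% of those at none, and counts of it below are to be read against these shares. Among the 75, DESeq2 called 7 higher and 1 lower, where it called 3.02% and 3.95% of all regions at no start site, and limma voom called 3 and 2, where it called 2.44% and 4.81%. Members of a family share loci and libraries, so no test was made between families.

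These counts changed when 1 library was left out. The shares of all regions called in those fits are not given, so the changes cannot be set against all regions. Without young replicate 1 the number of Gst increases was 1 and of Ugt increases 0, and 1 Sult region fell. Without aged replicate 1 the Gst and Ugt counts were 1 and 1. Without aged replicate 3 or without young replicate 2 they were 2 and 1. Without young replicate 3 they were 4 and 3, and 1 Ugt region fell. Without aged replicate 4, in contrast, 8 Gst, 7 Ugt and 2 Sult regions rose, and 1 Gst and 1 Ugt region fell. Removal of aged replicate 2 left 5 Gst and 2 Ugt increases and no decrease. With DESeq2, which called 4.96% of all regions higher and 3.47% lower, the increases numbered 11 Gst, 6 Ugt and 1 Sult. With limma voom, at 3.95% higher and 4.28% lower, they numbered 9, 4 and 0. With GC offsets, at 6.49% higher and 3.66% lower, they numbered 14, 4 and 0. With library totals in place of TMM factors, where 0.975% of all regions were higher and 5.26% lower, the 136 regions split into 5 higher and 4 lower.

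With TMM factors the direction of change followed the same order of families. With abundance offsets the medians kept this order but lay closer together, and the shares above 0 did not keep it. With TMM factors the median log2 fold change was 0.23 over Gst regions, -0.01 over Ugt regions and -0.07 over Sult regions, against -0.04 over all regions. It was above 0 in 34 of 50 Gst, 27 of 55 Ugt and 11 of 31 Sult regions, that is 68%, 49.1% and 35.5%, beside 46.6% of all regions. With library totals as the scale these shares were 62%, 43.6% and 35.5%, beside 34.6% of all regions. With offsets fitted on mean abundance (described below) they were nearly equal, at 60%, 61.8% and 61.3%, beside 51.5% of all regions. Every aged library lay above every young one in 16 Gst, 5 Ugt and 1 Sult regions, and below in 0, 6 and 4. Over all regions the same was true of 10.2% above and 11.6% below. Within each family, regions at a start site of any gene had higher medians than those at none. The medians were 0.29 and -0.01 for Gst, 0.20 and -0.10 for Ugt, and 0.08 and -0.21 for Sult, beside 0.09 and -0.09 over all regions. With abundance offsets the order held for Gst (0.16 and -0.02), was lost for Ugt (0.09 and 0.09) and turned for Sult (0.05 and 0.07) and for all regions (-0.03 and 0.04). The plot of change by gene class shows that the Gstm and Ugt2 classes lay mostly above 0, and the Ugt1 and Sult2 classes mostly below, the latter only without abundance offsets, with which 8 of 14 Sult2 regions lay above 0.

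**Figure D1:**
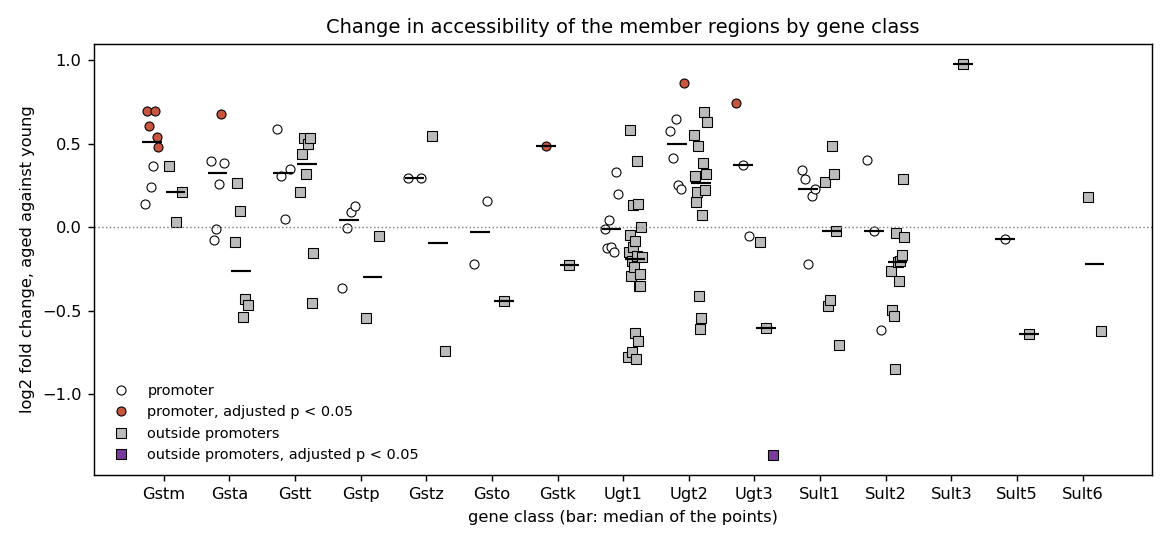
Each point is 1 of the 136 regions, placed by gene class, with the log2 fold change of aged against young liver on the vertical axis. Circles are regions at a phase II promoter, squares are other regions, colour marks an adjusted p under 0.05 and bars are medians. All 11 Gstm regions lie above 0, whereas 21 of 29 Ugt1 regions lie below it. With library totals as the scale 10 of the 11 Gstm regions, and with abundance offsets 13 of the 29 Ugt1 regions, have values above 0.

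The mu class genes on chromosome 3 held 5 of the 10 differential regions. Mu class enzymes conjugate glutathione to epoxides and other electrophiles. All 11 regions of the 7 genes Gstm1 to Gstm7 lay above 0 on the log2 fold change scale (median 0.37, and 10 of 11 with library totals as the scale), and 5 of the 8 promoter regions passed the test, at Gstm7, Gstm6, Gstm4 and 2 at Gstm1. The 3 regions outside promoters did not pass, at 0.37, 0.03 and 0.21. Stretches just upstream of the RefSeq start sites of the genes whose promoters rose are printed here to show the DNA on which the measurements lie, together with Gstm2, a neighbour that did not pass. Each runs 5′ to 3′ on the minus strand of GRCm38.p6, covers at most 150 bases before the start site and leaves out annotated exons. The positions are chr3:107931818-107931967 for Gstm7, chr3:107943750-107943884 for Gstm6, chr3:107986454-107986570 for Gstm2, chr3:108017974-108018123 for Gstm1 and chr3:108044895-108045009 for Gstm4. They hold no match to the motifs searched below, so no base is capitalised.
Gstm7: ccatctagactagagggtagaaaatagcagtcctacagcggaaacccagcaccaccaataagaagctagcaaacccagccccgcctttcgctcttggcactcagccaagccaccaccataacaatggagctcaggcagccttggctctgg
Gstm6: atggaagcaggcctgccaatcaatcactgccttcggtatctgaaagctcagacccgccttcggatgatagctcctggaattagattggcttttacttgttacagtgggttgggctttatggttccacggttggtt
Gstm2: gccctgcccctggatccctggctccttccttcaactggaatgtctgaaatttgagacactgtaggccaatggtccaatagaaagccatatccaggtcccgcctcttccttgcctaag
Gstm1: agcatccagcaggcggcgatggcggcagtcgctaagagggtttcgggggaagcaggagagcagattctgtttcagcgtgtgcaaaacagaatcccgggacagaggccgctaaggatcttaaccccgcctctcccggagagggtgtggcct
Gstm4: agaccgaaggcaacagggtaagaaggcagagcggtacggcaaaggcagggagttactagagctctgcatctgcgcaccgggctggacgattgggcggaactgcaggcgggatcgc

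Gstm7 had the smallest p of the 136 regions. Its promoter region (chr3:107931294-107932702) had 49.5, 44.6 and 38.8 CPM in the young libraries and 70.8, 70.2, 71.4 and 76.0 CPM in the aged ones. The groups did not overlap, and the aged libraries lay close together. The mean rose from 44.3 ± 5.36 (SD, n = 3) to 72.1 ± 2.63 CPM (SD, n = 4), a 1.62-fold difference with a log2 fold change of 0.70 ± 0.11 (SE, edgeR adjusted p = 0.00908). It passed under all 21 alternative fits, including each of the 7 that left out a library.

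Gstm6, the next gene, also rose. Its promoter (chr3:107943048-107943966) had 18.4, 17.1 and 18.6 CPM in young liver and 27.4, 27.3, 27.1 and 27.9 CPM in aged liver. The replicates of each age differed by far less than the ages did, and the log2 fold change was 0.61 ± 0.13 (SE, edgeR adjusted p = 0.0196). It did not pass without aged replicate 1, aged replicate 3, young replicate 1 or young replicate 2 (highest adjusted p over all alternatives 0.0842).

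Gstm1, the most abundant mu class gene in liver as background, had 2 promoter regions, since the annotation holds an additional downstream start site. At the upstream one (chr3:108016941-108018572), the young libraries had 59.5, 54.1 and 55.4 CPM and the aged ones 86.6, 75.5, 64.9 and 99.4 CPM. All aged libraries lay higher, but their spread was wide, and the log2 fold change was 0.54 ± 0.14 (SE, edgeR adjusted p = 0.0361). At the downstream one (chr3:108013285-108015385) the values were 29.3, 30.8 and 43.1 CPM against 65.1, 49.4, 55.3 and 49.4 CPM. The log2 fold change there was 0.69 ± 0.15 (SE, edgeR adjusted p = 0.0222). Young replicate 3 was the highest young library at the downstream site, and aged replicate 1 the highest aged one. The upstream call was lost without aged replicate 1 or any 1 of the 3 young libraries, and the downstream call without aged replicate 1, aged replicate 3, young replicate 1 or young replicate 2.

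Gstm4 (chr3:108044060-108045334) rose from 40.6, 35.6 and 29.9 CPM to 50.4, 49.0, 46.9 and 51.5 CPM, with a log2 fold change of 0.48 ± 0.12 (SE, edgeR adjusted p = 0.0381). This call held in 1 of the 7 fits that left out a library, that without aged replicate 4. The promoters of Gstm2, Gstm3 and Gstm5 had log2 fold changes of 0.37, 0.24 and 0.14 (adjusted p = 0.122, 0.476 and 0.626). Per length, they had 10.8, 15.5 and 13.8 CPM per kb in young liver. The promoter regions that passed had 16.4 at the downstream Gstm1 site, 19.6 at Gstm6, 27.8 at Gstm4, 31.4 at Gstm7 and 34.5 at the upstream Gstm1 site. Gstm3, at 15.5 ± 2.18, and the downstream Gstm1 site, at 16.4 ± 3.61 CPM per kb (SD, n = 3), lay within each other's spread.

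**Figure D2:**
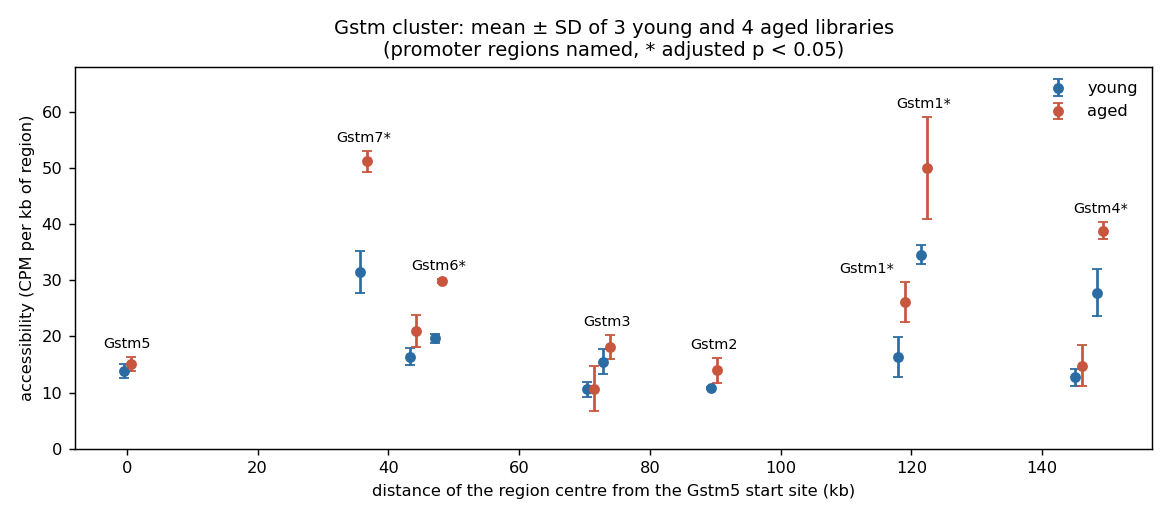
Accessibility of the 11 Gstm regions in CPM per kb of region (mean ± SD, 3 young and 4 aged libraries) against the distance of each region from the Gstm5 start site in kb. The pairs are shifted sideways to keep both visible. Promoter regions are named and asterisks mark an adjusted p under 0.05. With TMM scaling aged means lie above young ones at every region (with library totals at 10 of 11), most at Gstm7 and Gstm1.

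Among the other Gst classes, Gsta2 and Gstk1 rose. Gsta2 belongs to the alpha class, which reduces lipid peroxides. The 127 bases before its start site (chr9:78347169-78347295, minus strand, exons left out) are shown because its promoter had the largest increase outside the mu class among Gst genes that passed.
Gsta2: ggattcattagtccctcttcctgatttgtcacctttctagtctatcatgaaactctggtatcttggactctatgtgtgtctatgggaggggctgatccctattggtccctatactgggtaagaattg

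The Gsta2 promoter region (chr9:78346997-78349394) had 27.1, 38.1 and 29.9 CPM in the young libraries and 48.2, 59.0, 49.5 and 48.2 CPM in the aged ones. Aged replicate 2 stood above 3 nearly equal aged libraries, and none overlapped the young ones. The log2 fold change was 0.68 ± 0.14 (SE, edgeR adjusted p = 0.0174), and it was lost without aged replicate 1, aged replicate 3 or young replicate 1. Gstk1, a kappa class enzyme of mitochondria and peroxisomes, had 29.2, 26.7 and 23.0 CPM against 37.9, 35.7, 39.5 and 35.0 CPM at its promoter (chr6:42245729-42246536). Its log2 fold change was 0.48 ± 0.13 (SE, edgeR adjusted p = 0.0394), and of the 7 fits that left out a library only that without aged replicate 4 called it.

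Other accessible Gst promoters did not pass. Gstp3, of the pi class, had 106, 112 and 130 CPM in young liver and 108, 131, 124 and 144 CPM in aged liver, so that the groups overlapped (log2 fold change 0.13 ± 0.12 SE, edgeR adjusted p = 0.564). Over the 21 alternatives its value ran from -0.23 to 0.23. Gstp1, the main pi class enzyme, had almost equal means of 37.0 ± 1.92 (SD, n = 3) and 36.8 ± 4.55 CPM (SD, n = 4) at its more accessible promoter region. A region in its flank, 42.9 CPM in young and 29.1 CPM in aged liver, differed by -0.54 on the log2 scale (adjusted p = 0.0722). That region passed in 3 of 21 alternatives, with library totals (adjusted p = 0.0314), with a replicate block (adjusted p = 0.0193) and without aged replicate 4. The block groups libraries by replicate number. Aged replicate 4 is alone in its block, so that fit too leaves it out of the age comparison. Gstz1, the maleylacetoacetate isomerase of tyrosine breakdown, shares its promoter region with Pomt2 and had the highest young value per length of these Gst promoters, at 63.5 CPM per kb. There every aged library exceeded every young one, at 96.0, 87.6 and 81.7 against 107, 102, 113 and 112 CPM, but the log2 fold change of 0.29 ± 0.11 (SE) did not pass (edgeR adjusted p = 0.111). A flank region of Gstz1 had the most negative value of the Gst family, -0.74 (adjusted p = 0.126).

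The theta class, which also handles small halogenated compounds, moved mostly one way without passing. Of its 12 regions, 10 had a log2 fold change above 0 (9 with library totals, 8 with abundance offsets), and the median was 0.33. All aged libraries lay above all young ones in 5 of the 12, beside 10.2% of all regions. With edgeR 0 passed, 6 of 12 had an unadjusted p under 0.05 (24.6% of all regions), DESeq2 called 3 higher and limma voom 2. At the Gstt1 promoter the values were 19.4, 25.8 and 36.2 CPM against 30.7, 41.0, 30.3 and 30.9 CPM, and the log2 fold change was 0.31 (adjusted p = 0.332). Gstt2, one of the Gst promoters with the most CPM, had 52.6 ± 7.32 (SD, n = 3) and 55.0 ± 11.3 CPM (SD, n = 4). The 6 pi class regions had a median of -0.03 and the 3 omega class regions one of -0.22.

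**Figure D3:**
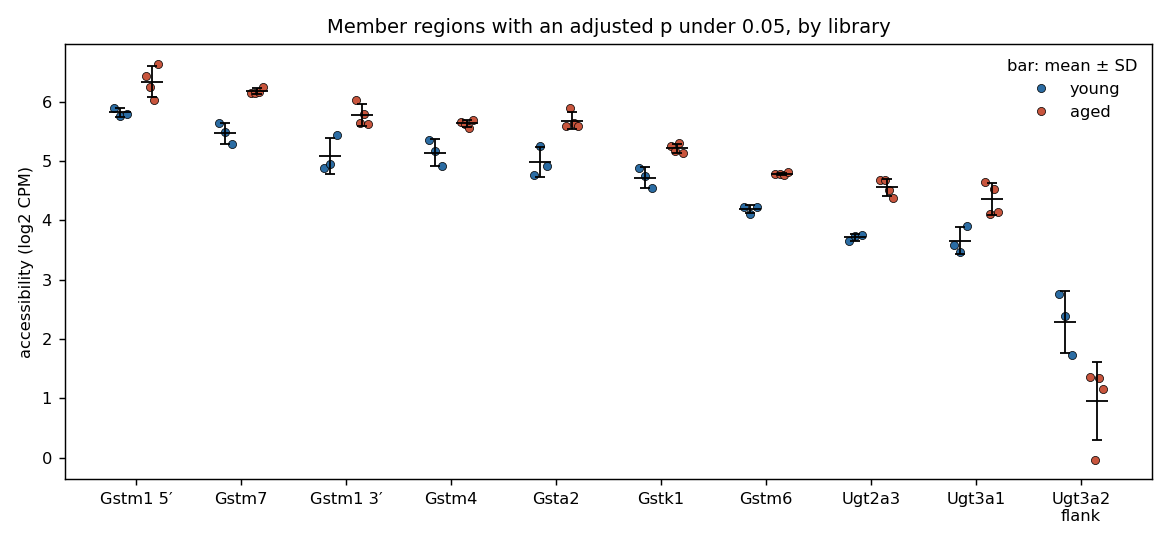
The 10 regions with an adjusted p under 0.05, with log2 CPM on the vertical axis and 1 point for each library (3 young, 4 aged). Bars give the mean ± SD. At the first 9 regions every aged point lies above every young one, and at the Ugt3a2 flank every aged point lies below.

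The Ugt family showed 2 increases and 1 decrease. Ugt2a3 lies in the Ugt2 cluster on chromosome 5, whose enzymes conjugate steroids, bile acids and drugs. Ugt1a1 is the enzyme that conjugates bilirubin. The 150 bases before the start site are shown for Ugt2a3 (chr5:87337196-87337345, minus strand), which had the largest increase of all called regions, and for Ugt1a1 (chr1:88211809-88211958, plus strand), the most accessible Ugt promoter. Capitals mark a match to the HNF1 motif.
Ugt2a3: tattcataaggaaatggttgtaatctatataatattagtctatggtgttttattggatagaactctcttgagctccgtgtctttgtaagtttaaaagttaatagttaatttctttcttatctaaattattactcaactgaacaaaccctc
Ugt1a1: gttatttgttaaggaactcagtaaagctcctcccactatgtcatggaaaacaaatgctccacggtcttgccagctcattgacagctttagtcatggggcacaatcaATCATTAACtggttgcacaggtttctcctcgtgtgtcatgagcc

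The Ugt2a3 promoter region (chr5:87336493-87337314) had 12.3, 13.2 and 13.3 CPM in the young libraries and 25.4, 25.3, 22.6 and 20.5 CPM in the aged ones. The young values were almost equal, and the lowest aged one, in replicate 4, was still well above them. The log2 fold change was 0.86 ± 0.15 (SE, edgeR adjusted p = 0.0110), a 1.82-fold difference. It passed under 20 of 21 alternatives, all but the fit without young replicate 1 (adjusted p = 0.0593).

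At Ugt3a1, whose enzyme uses UDP-N-acetylglucosamine, 1 of 2 promoter regions rose. The region at chr15:9276350-9277270 had 11.8, 10.8 and 14.8 CPM in young liver and 24.9, 17.1, 22.9 and 17.4 CPM in aged liver (log2 fold change 0.74 ± 0.19 SE, edgeR adjusted p = 0.0357). The groups did not overlap, but the aged libraries fell into a higher and a lower pair. The call was lost without aged replicate 1, aged replicate 3, young replicate 1 or young replicate 2. The Ugt3a1 promoter region with more CPM, at 19.9 CPM in young liver, differed by 0.37 on the log2 scale (adjusted p = 0.151). The decrease was at a flank of Ugt3a2 (chr15:9372938-9373800), a weak region with 71, 133 and 19 counts in the young libraries and 27, 4, 10 and 16 in the aged ones. Its CPM fell from 6.57, 5.03 and 3.12 to 2.37, 0.785, 2.33 and 2.04, a log2 fold change of -1.36 ± 0.35 (SE, edgeR adjusted p = 0.0383), and only the fits without aged replicate 4 and without young replicate 3 among the 7 called it.

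Within the Ugt2 class, 17 of 20 log2 fold changes were above 0 (median 0.31, with 16 and 18 above 0 by library totals and abundance offsets), and all 6 promoters lay above 0 under each scaling. Ugt2b35 had 14.3, 15.5 and 23.7 CPM against 32.6, 29.8, 27.8 and 19.3 CPM, with aged replicate 4 below the highest young library, and it did not pass (log2 fold change 0.65 ± 0.21 SE, edgeR adjusted p = 0.0750). It passed in 8 of 21 alternatives, among them DESeq2, limma voom and the fit without aged replicate 4. Ugt2b1 and Ugt2b36, main hepatic members of the class, had log2 fold changes of 0.42 and 0.25 (adjusted p = 0.170 and 0.254), and at both the lowest aged library was again replicate 4.

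At the Ugt1 locus on chromosome 1 most regions lay below 0. Its genes have separate first exons and share the remaining exons, so that 1 region can lie within as many as 9 genes. Of the 29 regions, log2 fold changes were positive in 8 and negative in 21 (median -0.15, and 13 positive with abundance offsets, median -0.04). All aged libraries lay below all young ones in 4 regions (11.6% of all regions) and above them in 1 (10.2% of all regions). None of the 29 passed with edgeR, where 5 had an unadjusted p under 0.05, beside 24.6% of all regions. DESeq2 called 1 higher, and limma voom 1 higher and 1 lower. The Ugt1a1 promoter region, with the highest CPM of the 136, had 173, 193 and 190 CPM in young and 199, 255, 219 and 179 CPM in aged liver. Aged replicate 4 fell among the young values, and the log2 fold change of 0.20 ± 0.13 (SE) did not pass (edgeR adjusted p = 0.367). Over the 21 alternatives this value ran from -0.21 to 0.28. The promoter region shared by Ugt1a6b and Ugt1a7c differed by 0.05 (adjusted p = 0.867) and that of Ugt1a6a, a phenol-conjugating form, by -0.12 (adjusted p = 0.762). Ugt1a5 had 0.33 (adjusted p = 0.215). Per length, Ugt1a1 had 55.1 CPM per kb in young liver, and the other promoters of the locus named here had 8.23 to 10.7.

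No Sult region passed with edgeR in either direction. Of the 31 regions, 7 had an unadjusted p under 0.05, beside 24.6% of all regions, DESeq2 called 1 higher, at Sult1e1, and limma voom called 0. The Sult promoter region with the most CPM was that of Sult2a8, a bile acid sulfotransferase of mouse liver, although per length Sult1a1 was higher, with 21.5 against 15.3 CPM per kb in young liver. Sult2a8 had 50.5, 41.2 and 46.4 CPM in young and 69.8, 59.0, 67.7 and 46.7 CPM in aged liver. Aged replicate 4 lay within the young range, and the log2 fold change was 0.40 ± 0.14 (SE, edgeR adjusted p = 0.101). It passed without that library (adjusted p = 0.0245) and with a replicate block (adjusted p = 0.0253). The block also leaves that library out of the age comparison, so these are not separate results. Inside the same gene, an exon region fell short of the threshold in the opposite direction. It had 13.4, 8.73 and 9.04 CPM against 7.20, 3.33, 6.54 and 5.60 CPM, so that the groups did not overlap (log2 fold change -0.85 ± 0.26 SE, edgeR adjusted p = 0.0681). It passed with library totals (adjusted p = 0.0411) and with the replicate block (adjusted p = 0.0376), and in 0 of the 7 fits without a library.

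Sult1b1, which sulfates thyroid hormones, and Sult1a1, a phenol sulfotransferase, had log2 fold changes of 0.29 and 0.23 at their promoters (adjusted p = 0.254 and 0.431), with overlapping groups at both. Sult1c2 had 0.34 (adjusted p = 0.211) and Sult5a1 -0.07 (adjusted p = 0.826). The largest positive value of the family was 0.98 at a flank of Sult3a2, where young libraries averaged 1.65 ± 0.394 CPM (SD, n = 3) and aged ones 3.15 ± 1.58 CPM (SD, n = 4) (adjusted p = 0.167, and 0.0389 without aged replicate 4). The Sult2 class leaned below 0, in 12 of 14 regions with a median of -0.20 (6 of 14 and 0.05 with abundance offsets), while 7 of 12 Sult1 regions lay above 0 with a median of 0.21. The intron region of Sult2a1 had 6.68 CPM in young and 4.85 CPM in aged liver (log2 fold change -0.50, adjusted p = 0.297).

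Aged replicate 4 was not low at all loci, as the plot of library positions shows. At the 8 regions of Gsta3, an alpha class gene, it was the lowest aged library every time, with a median difference of -1.57 on the log2 scale from the other aged libraries. Aged replicate 2 was the highest in 7 of the 8 (median 1.23), and young replicate 2 was the highest young library in all 8 (median 0.68). The Gsta3 promoter reflected this spread, with 23.5, 32.7 and 26.1 CPM in young liver and 35.9, 56.7, 32.7 and 21.4 CPM in aged liver (log2 fold change 0.40 ± 0.24 SE, edgeR adjusted p = 0.331). That promoter passed in 1 of 21 alternatives, the replicate block (edgeR adjusted p = 0.0211), which leaves aged replicate 4 out of the age comparison. Aged replicate 4 was also lowest in 17 of 20 Ugt2 and 21 of 29 Ugt1 regions, with median differences of -0.53 and -0.43. At the Gstm regions it was lowest in 5 of 11 and highest in 4, with a median of -0.10, and at the Sult regions the median was -0.11. Whether it is 1 of the lobules taken from the shared animal cannot be read from the labels.

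**Figure D4:**
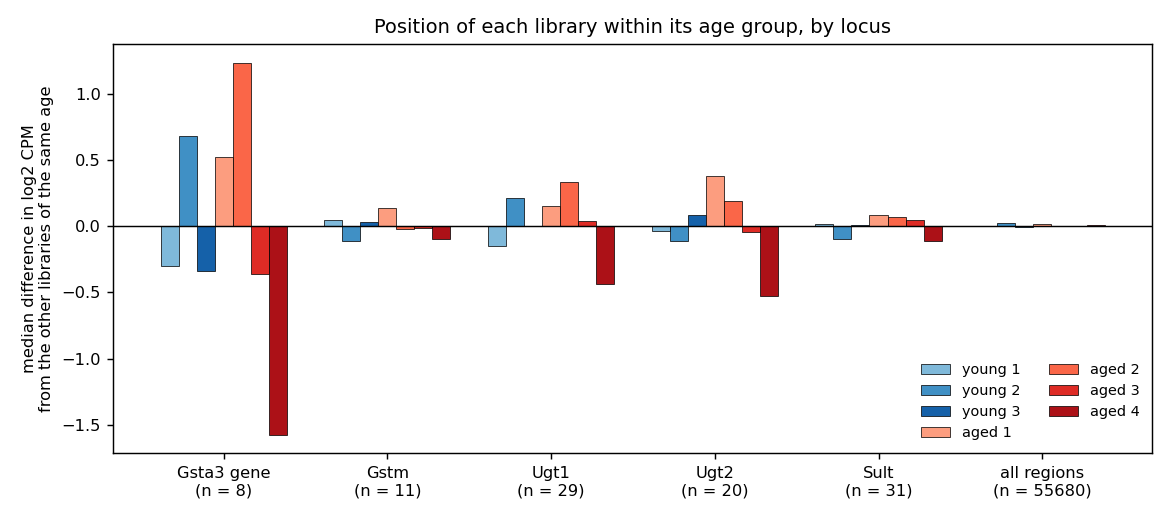
Bars give, for each library, the median difference in log2 CPM from the other libraries of the same age, over the regions of each locus or class (number of regions in parentheses). Aged replicate 4 lies at -1.57 for Gsta3, at -0.43 and -0.53 for Ugt1 and Ugt2, and near 0 over all regions.

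The change with age was related to the mean log2 CPM of a region, over the whole series and at these genes. This level is not corrected for region length. Median log2 fold changes rose from -0.42 in the lowest decile of accessibility of all regions to 0.28 in the highest, and Spearman's rho between mean log2 CPM and log2 fold change was 0.50 over all regions and 0.52 over the 136. These are descriptions, since all regions share the same 7 libraries. The 3 highest deciles held 32 of the 50 Gst regions, 12 of the 55 Ugt regions and 7 of the 31 Sult regions. When offsets fitted on mean abundance removed this relation, 0.449% of all regions rose and 0.744% fell, and of the phase II regions Gstm7 (adjusted p = 0.0424) and Ugt2a3 (adjusted p = 0.0211) still passed. The medians then became 0.14 for Gst, 0.09 for Ugt and 0.07 for Sult, so that the families lay closer together. Scaling by library totals shifted the median of all regions from -0.04 to -0.15 and left the order of the families, at 0.11, -0.13 and -0.19.

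**Figure D5:**
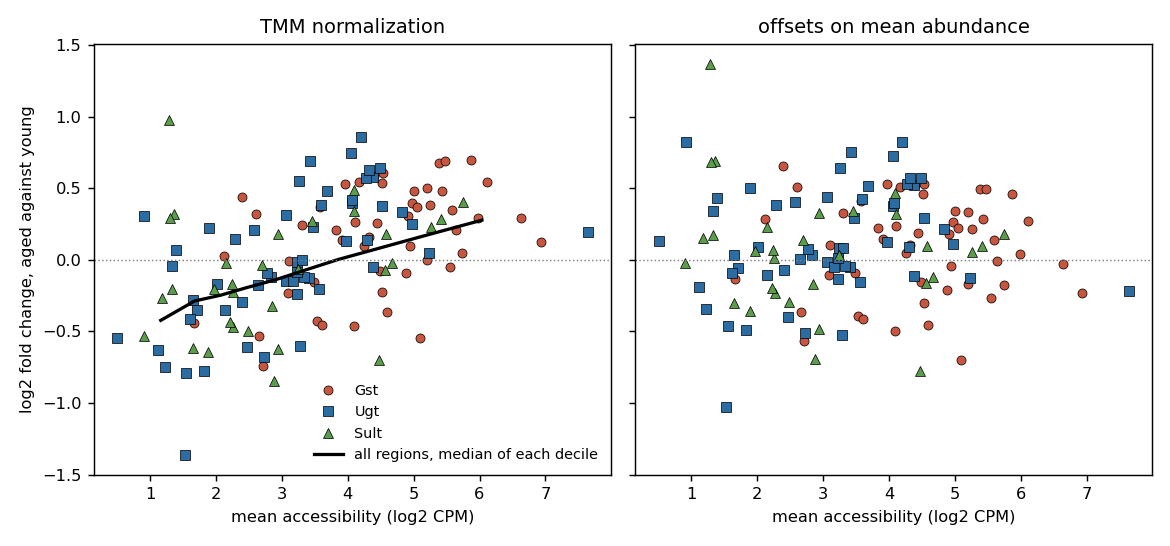
Log2 fold change of aged against young liver against mean log2 CPM for the 136 regions, coloured by family. With TMM normalization (left) the line joins the median of each decile of all 55680 regions and climbs from -0.42 to 0.28. With offsets on mean abundance (right) the family medians lie between 0.07 and 0.14.

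Short motifs of liver and xenobiotic factors were looked for on both strands of the RefSeq promoters, 250 bases before to 50 after each start site (GRCm38.p6), of which 68 belonged to 57 of the 65 genes. The HNF1 motif GTTAATNAT, bound by a factor of hepatocytes, was found in 8 of the 68 (11.8%) and in 0.801% of all 32851 promoters. It occurred in 5 of 20 Sult, 3 of 20 Ugt and 0 of 28 Gst promoters, and the Ugt matches were at Ugt1a1, Ugt1a9 and Ugt1a10. The core of the antioxidant response element, TGACNNNGC, was found in 4.41% against 12.4%, all 3 matches being in Gst promoters, namely Gsta3, Gstm5 and Gstm7. The dioxin response core TNGCGTG was found in 4.41% against 5.07%, the HNF4 motif CAAAGTCCA in 1.47% against 0.475%, and TATAAA in 22.1% against 13.6%. Over the whole accessible promoter regions, which are longer (median 1590 bases for the phase II genes and 1233 for all), the antioxidant core was found in 55.8% of the phase II and 66.7% of the Gst promoter regions, against 43.9% of all promoter regions, so its order differed between the windows. A match is a string of letters and not a bound site.

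The genes that supply the donors of these reactions were also followed at their promoters. As background, 4.48% of all promoter regions rose with edgeR, 10% with DESeq2 and 7.87% with limma voom, and 2.06%, 2.22% and 2.9% fell. A log2 fold change above 0 was found in 61.1% of all promoter regions, in 46.7% with library totals and in 44.5% with abundance offsets. Of 12 cofactor genes, 5 rose and 0 fell, 10 had a log2 fold change above 0 (8 with abundance offsets) and the median was 0.25. Ugp2 and Ugdh, which make UDP-glucose and oxidise it to UDP-glucuronate, had 0.47 and 0.43 (edgeR adjusted p = 0.0410 and 0.0422). Slc35d1, a carrier of UDP-sugars into the endoplasmic reticulum, had 0.40, Papss1, a PAPS synthase, 0.49, and Ggct of glutathione turnover 0.43 (edgeR adjusted p = 0.0489, 0.0439 and 0.0377). Gclc and Gclm, the subunits of the first enzyme of glutathione synthesis, had 0.17 and 0.22 and did not pass (adjusted p = 0.417 and 0.219).

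Of 15 other conjugation enzymes with a promoter region, among them methyltransferases and acetyltransferases, 0 passed with edgeR, 5 had an unadjusted p under 0.05 (32.1% of all promoter regions), DESeq2 called 3 and limma voom 1, and 13 lay above 0 (median 0.28, with 11 above 0 by library totals and 9 with abundance offsets). Of 11 regulators, Arnt, the partner of the aryl hydrocarbon receptor, rose by 0.47 (edgeR adjusted p = 0.0322), and all 11 lay above 0 with a median of 0.25, although 7 did so with library totals and 3 with abundance offsets. Together 6 of 38 genes rose, which was 4 without aged replicate 2 or aged replicate 4, 1 without young replicate 3 and 0 without any 1 of the other 4 libraries. The shares of all promoter regions called without these libraries are not given. With GC offsets 13 of the 38 rose, where 14.2% of all promoter regions did. None of the 38 passed with abundance offsets.

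Markers of liver cell types were read in the same way. All 8 hepatocyte markers had a promoter region, with a summed level of 625 to 711 CPM in young and 782 to 897 CPM in aged liver and a median log2 fold change of 0.28 (7 of 8 above 0, and 4 with abundance offsets). Apoa1 rose (0.53, edgeR adjusted p = 0.0331), but with abundance offsets its value was 0.08 and did not pass (edgeR adjusted p = 0.770). Hnf4a is also in the list of regulators. Promoter regions were present for 3 of 6 cholangiocyte, 4 of 6 endothelial, 1 of 6 Kupffer cell, 4 of 6 stellate cell and 0 of 8 lymphocyte markers, and none passed. The sums overlapped between the ages for the 3 cholangiocyte markers, at 43.8 to 52.0 and 39.4 to 56.9 CPM, and for the 4 endothelial markers, at 64.0 to 70.8 and 54.1 to 88.2 CPM. Most of the cholangiocyte sum was Sox9, with means of 42.7 and 40.7 CPM, while Epcam had 3.33 to 4.38 CPM in young and 1.57 to 2.67 CPM in aged liver, without overlap (log2 fold change -0.77, edgeR adjusted p = 0.116). The 4 stellate markers summed to 23.8 to 28.4 CPM in young and 14.5 to 22.2 CPM in aged liver. Most of that sum was Reln, with means of 18.7 and 11.7 CPM (log2 fold change -0.64, edgeR adjusted p = 0.0586), while the other stellate markers had at most 3.46 CPM and Hand2 lay above 0 at 0.24 (adjusted p = 0.752). Clec4f, the Kupffer marker, had 2.22 to 2.65 and 0.588 to 2.80 CPM. In whole tissue, a change in the share of a cell type and a change within its cells cannot be told apart, and the part of either in the Gst and Ugt increases was not tested.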

How the data were processed

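Raw counts of ATAC-seq reads in 55680 consensus regions were used for 3 young and 4 aged liver libraries. According to the methods and the submitters' processing notes, the authors trimmed reads with cutadapt 1.13, aligned them to GRCm38 with Bowtie2 2.4.1, kept proper pairs with mapping quality over 10, removed duplicates and mitochondrial reads, called peaks per library with MACS2 2.2.7, removed blacklisted regions, merged peaks found in 2 or more libraries and deposited the counts from featureCounts without normalization. The PCR reads carry no molecular identifiers. Counts summed to 4474652 to 25461110 per library.

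All regions were fitted with edgeR 4.0.16 in R 4.3.3 (quasi-likelihood test on age alone, TMM normalization, Benjamini-Hochberg adjustment over all regions, threshold 0.05). DESeq2 1.42.0 and limma 3.58.1 (voom) were alternatives, with others on normalization, filters, libraries and region choice. Log2 CPM used a prior count of 2. SE was the log2 fold change over the square root of F. The fit was checked on simulated data. Copies were searched with minimap2 2.31 (95% identity over 80% of the region).

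Regions were assigned to genes with GENCODE M21, and a gene's promoter value was that of its promoter region with the highest mean log2 CPM. Named were all regions that passed, the 5 genes of each family with the highest promoter CPM, the largest change of each family in each direction, and 12 genes with known roles. The genes, lists and motifs were chosen with earlier results of these data known. Other regions and genes named (Gstm2, Gstm3, Gstm5, a Gstp1 flank, the second Ugt3a1 promoter, Gclc, Gclm and markers) were named after their values were seen. Promoter sequences came from RefSeq (GRCm38.p6), and the 9 extracted stretches matched the genome.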

Additional observations from a re-analysis of the deposited data

Results flagged for a closer look

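In 3 of the 31 named regions, 1 of the 4 aged libraries lay far from the other 3 by Dixon's criterion, in which the gap to the nearest library is set against the whole range. Chance alone gives about 1 such group in 20. All 3 concerned aged replicate 2. At the Gsta2 promoter it was high, at 5.8882 log2 CPM with the others at 5.60 to 5.63, and all 4 aged libraries still lay above the young ones. At the Gstt1 promoter it was high as well, at 5.3641 log2 CPM against 4.93 to 4.96. At the Ugt3a2 flank it was low, at -0.0306 log2 CPM against 1.16 to 1.36, on 4 counts.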

How the results depend on the processing

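The families' median log2 fold changes moved by less than the spread between libraries under every alternative, and leaving out 1 library at a time gave 0.12 to 0.28 for Gst, -0.08 to 0.07 for Ugt and -0.13 to -0.06 for Sult regions. The counts depended on the setting, and the cause was not tested. Shares of all regions called are given above for DESeq2, limma voom, GC offsets, abundance offsets and library totals. For the other settings below they are not given, so those counts cannot be set against all regions. Leaving out 1 library at a time gave 1 to 17 higher regions (Gst 1 to 8, Ugt 0 to 7, Sult 0 to 2), 1 to 12 higher promoters and 0 to 4 higher genes of the pathway lists, and 0 to 2 lower regions (0 to 1 in each of Gst, Ugt and Sult).

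With at least 10 counts in every sample, 5 regions rose (4 Gst, 1 Ugt, all 5 promoters), 0 fell (0 Ugt), and 0 pathway genes rose. DESeq2 gave 18 higher (11 Gst, 6 Ugt, 1 Sult). GC offsets gave 18 higher (14 Gst, 4 Ugt, 14 promoters) and 13 pathway genes. Abundance offsets gave 2 higher (1 Gst, 1 Ugt, both promoters, 2), 0 lower (0 Ugt) and 0 pathway genes. limma voom gave 4 higher Ugt regions and 2 lower regions, both Ugt (2). Total counts gave 5 higher (4 Gst, 1 Ugt, 5 promoters), 4 lower (1 Gst, 2 Ugt, 1 Sult) and 0 pathway genes. At a threshold of 0.01, 1 region rose (1 Gst, 0 Ugt, 1 promoter), 0 fell (0 Ugt) and 0 pathway genes rose. In gene bodies only, 0 regions fell (0 Ugt). Summing aged 1 and 3 as 1 sample gave 5 higher (4 Gst, 1 Ugt, 5 promoters), 0 lower (0 Ugt) and 0 pathway genes. Summing aged 1 and 2 gave 2 pathway genes. Summing aged 1 and 4 gave 5 higher Ugt regions and 2 pathway genes. Summing aged 2 and 3 gave 1 higher Ugt region, 0 lower (0 Ugt) and 1 pathway gene. Summing aged 2 and 4 gave 15 higher (6 Ugt) and 2 lower (2 Ugt). Summing aged 3 and 4 gave 0 lower (0 Ugt) and 0 pathway genes.

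Replicate numbers did not pair the libraries: same-numbered deviations correlated at -0.12, 0.06 and 0.03. With a replicate block, 18 regions rose (7 Ugt, 1 Sult), 3 fell (1 Gst, 1 Sult) and 1 pathway gene rose. Aged replicate 4 is alone in its block and so is left out of the age comparison there. The share of all regions called with the block is not given, so these counts cannot be set against it. The young libraries correlated best with aged replicates 4, 2 and 1.

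The smallest library held 4474652 counts, and the Ugt3a2 flank rested on 4 to 27 counts per aged library.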
